A study of Mus musculus with 5 samples.

Results

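The genes described here are the paired isoforms of cytochrome c oxidase subunits: Cox4i1 and Cox4i2, Cox6a1 and Cox6a2, Cox6b1 and Cox6b2, Cox7a1 and Cox7a2 with the related Cox7a2l, and Cox8a. They were taken by name, as probe sets whose only gene symbol is one of these 10, which gave 11 probe sets (2 for Cox7a2l, 1 for each other gene) of 28187 tested. RNA bound in anti-FLAG precipitates was hybridised to Affymetrix arrays. NSC-34 cells, a mouse hybrid line with motor neuron features, were used throughout. In the FLAG-SMN IP group (3 arrays) the cells contained a 3XFLAG-flSMN construct, a tagged full-length form of the survival of motor neuron protein (SMN). In the control IP group (2 arrays) they had no FLAG construct. Cells of both groups were differentiated in 1% serum (3 days in the growth protocol, 48 hours in the treatment protocol), received doxycycline at 3 µg/ml for 3 days and were crosslinked by ultraviolet irradiation (400 mJ/cm2) before lysis and precipitation on anti-FLAG M2 beads. Whether the construct line is 1 clone is not given in the sources used here. RNA of the lysates was not analysed here, so a difference in the precipitate and a difference of the RNA level in the construct cells cannot be told apart. The labels do not state whether the replicates came from separate cultures, so the p-values may cover technical spread alone.

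Cytochrome c oxidase is the last enzyme of the mitochondrial respiratory chain and passes electrons from cytochrome c to oxygen. Its catalytic core is encoded by the mitochondrial genome, and the surrounding subunits are encoded in the nucleus. Several nuclear subunits exist as a widely expressed form and a tissue-restricted form: Cox4i2 is known from lung and from cells at low oxygen, Cox6a2 and Cox7a1 from heart and skeletal muscle, and Cox6b2 from testis.

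On the labelled identity, 7 of 8 neuron markers lay above the median of the presumed control probe sets on every array. On the log2 scale their list averaged 6.39 to 7.78 per array in FLAG-SMN IP and 7.44 to 7.47 in control IP. Uchl1 was the brightest of them (10.58 to 10.72), and Stmn2 lay below those medians on every array. The motor neuron markers averaged only 4.50 to 4.67 per array over 5 genes. Of these 5, none passed the limma threshold of adjusted p under 0.05, 2 lay above the presumed control median on every array and 2 below it on every array. Chat, the acetylcholine-synthesising enzyme, was at 4.53, 4.69 and 4.40 in FLAG-SMN IP and at 4.61 and 4.28 in control IP. The presumed control medians were 4.30 to 4.55, a low bar beside the medians of all tested probe sets (5.25 to 5.39). Markers of other cell types also lay above it on every array: 5 of 8 for striated muscle and 3 of 5 for fibroblasts. The counts were 3 of 8 for pericytes and smooth muscle, 1 of 7 for male germ cells and 1 of 4 for glia. Within FLAG-SMN IP, replicate 1 was the least similar array, with Pearson r = 0.964 and 0.968 to replicates 2 and 3 across probe sets. Replicates 2 and 3 correlated at 0.989 with each other and at 0.968 to 0.977 with the control arrays. They were thus no less similar to the control arrays than to FLAG-SMN IP replicate 1. Values without that replicate are given beside many of the results. Smn1, the gene of the SMN protein, had a log2 difference of 1.74 between the precipitates (limma adjusted p = 0.0877). Whether its probe set also reads RNA of the construct, which only the FLAG-SMN cells contained, was not tested.

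Of the 10 genes, 0 passed the limma threshold (adjusted p under 0.05 over all probe sets), which 0.0319% of all probe sets passed. At a limma unadjusted p under 0.05, 2 of the 10 were higher in FLAG-SMN IP (Cox4i2 and Cox7a1; 4.14% of all probe sets) and 1 was lower (Cox6b2; 6.31% of all probe sets). The groups did not overlap, with FLAG-SMN IP above, for 3 of the 10 (Cox4i2, Cox7a1 and Cox7a2l; 12.1% of all probe sets). They did not overlap in the other direction for 2 of the 10 (Cox6b1 and Cox6b2; 13.2% of all probe sets). The median log2 difference over the 10 genes was 0.30 and over all probe sets 0.018. Without control IP replicate 2 the median of the 10 genes was at -5e-04.

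**Figure D1:**
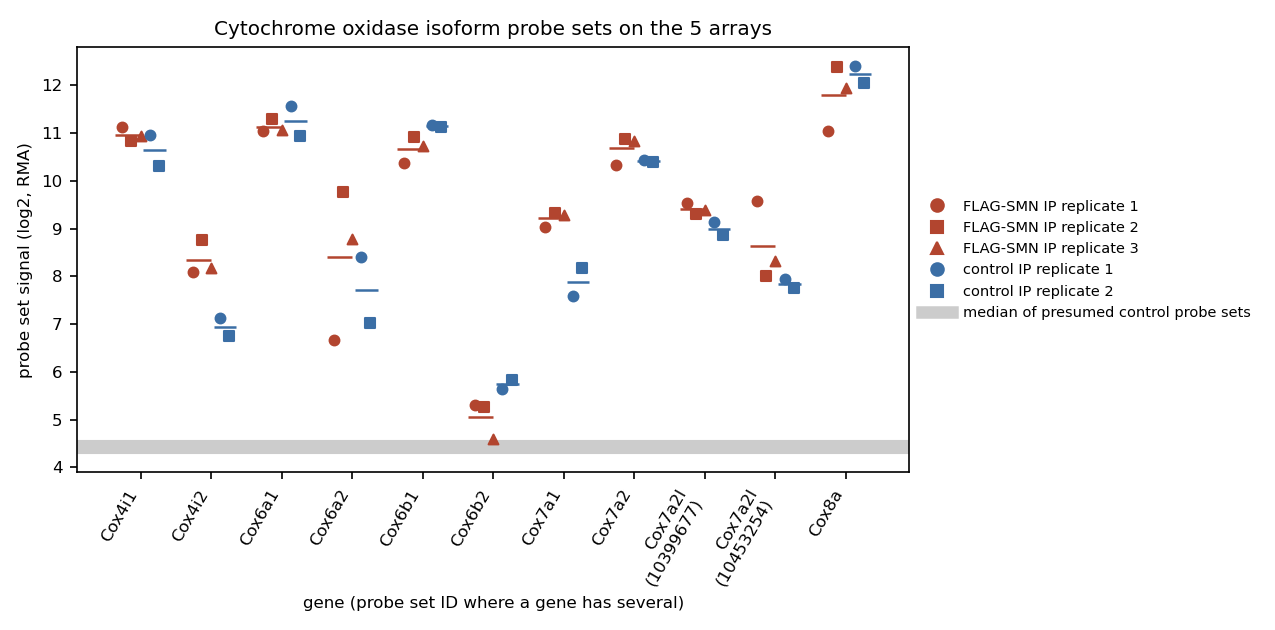
Log2 signal of each probe set (vertical axis) on each of the 5 arrays, by gene (horizontal axis); horizontal bars are group means and the grey band spans the arrays' medians of presumed control probe sets. Cox4i2 and Cox7a1 are higher on all 3 FLAG-SMN arrays than on both control arrays, and Cox6a2 is spread from 6.67 to 9.76 within FLAG-SMN IP.

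Cox4i2 gave the largest positive difference of the 11 probe sets. Its log2 signal was 8.10, 8.77 and 8.17 in FLAG-SMN IP and 7.13 and 6.76 in control IP. Every FLAG-SMN array lay above both control arrays, and replicate 2 was the highest of the 5. The means were 8.35 ± 0.37 (SD, n = 3) and 6.94 ± 0.26 (SD, n = 2). The log2 difference was 1.40 (SE 0.26), a fold of 2.64 with a 95% confidence interval of 1.71 to 4.08, which did not pass the threshold (limma adjusted p = 0.151). A difference as high as that of Cox4i2 or higher was found at 0.624% of all probe sets. With FLAG-SMN IP replicate 1 left out, 350 probe sets passed over the whole series, against 9 with all 5 arrays. In that fit the difference of Cox4i2 was 1.52 and passed (limma adjusted p = 0.0481). With any other array left out it was 1.19 to 1.59 and did not pass.

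Cox4i1, the widely expressed isoform of the same subunit, was measured at 11.13, 10.83 and 10.95 in FLAG-SMN IP and at 10.97 and 10.31 in control IP. The groups overlapped: control IP replicate 1 lay between FLAG-SMN IP replicates 1 and 3, and control IP replicate 2 was below all others. The log2 difference of Cox4i1 was 0.33 (SE 0.25; limma adjusted p = 0.787), and it was -0.0047 without control IP replicate 2. COX4 is the subunit through which the enzyme's activity is known to respond to ATP, and the isoforms are known to differ in that response.

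The isoforms of COX4 were then set against each other on each array. Cox4i2 minus Cox4i1 was -3.03, -2.06 and -2.78 in FLAG-SMN IP and -3.85 and -3.55 in control IP, on the log2 scale. The groups did not overlap. Only the change of this value between groups is read, since signals of different probe sets do not compare levels. The change was 1.07, a 2.11-fold shift of the ratio toward Cox4i2 (exact permutation test, 2-sided, p = 0.10). That p is the smallest this test can give with 5 arrays, so the test cannot reach 0.05. With cyclic loess scaling the change was 1.12 (exact permutation test, 2-sided, p = 0.20). The change was 0.79 to 1.28 with single arrays left out. The labels and sources give no measure of oxygen in these cultures.

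The COX7A group held the only other isoform with a difference of this size. Cox7a1, the heart and skeletal muscle form, was at 9.04, 9.33 and 9.28 in FLAG-SMN IP and at 7.60 and 8.17 in control IP. All FLAG-SMN arrays lay above both control arrays, and they lay closer together than the control arrays did. The log2 difference was 1.33 (SE 0.23), a fold of 2.52 with a 95% confidence interval of 1.72 to 3.69, and did not pass (limma adjusted p = 0.133). Without FLAG-SMN IP replicate 1, where 350 probe sets passed over the series, it was 1.42 and passed (limma adjusted p = 0.0456). With any other array left out it was 1.04 to 1.62 and did not pass.

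Cox7a2, the form found in most tissues, gave 10.33, 10.88 and 10.84 in FLAG-SMN IP and 10.44 and 10.40 in control IP. FLAG-SMN IP replicate 1 lay below both control arrays and the other two above them, so the groups overlapped. The log2 difference of Cox7a2 was 0.27 (SE 0.23; limma adjusted p = 0.835). Leaving out FLAG-SMN IP replicate 1 gave 0.44. On the arrays, Cox7a1 minus Cox7a2 was -1.29, -1.55 and -1.56 in FLAG-SMN IP and -2.84 and -2.22 in control IP. The groups did not overlap. The change was 1.07, a 2.09-fold shift of the ratio toward Cox7a1 (exact permutation test, 2-sided, p = 0.10, the smallest possible). It was 0.76 to 1.37 with single arrays left out.

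Whether the construct and control cells transcribe these genes equally was not measured. The bases before the start of each member of this pair are shown only to describe the region where transcription begins. A reference sequence is the same for both groups and cannot answer that question. Cox6b1 and Cox6b2 also had such windows, which are not printed. RefSeq (GRCm38.p6) gave 250 bases upstream of each start, printed 5′ to 3′ on the gene's strand with CCAAT (or ATTGG on the other strand), GGGCGG and TTCCGG in capitals. Cox7a1 lies on the plus strand with this window at chr7:30183921-30184170, and Cox7a2 on the minus strand with its window at chr9:79759854-79760103.
Cox7a1: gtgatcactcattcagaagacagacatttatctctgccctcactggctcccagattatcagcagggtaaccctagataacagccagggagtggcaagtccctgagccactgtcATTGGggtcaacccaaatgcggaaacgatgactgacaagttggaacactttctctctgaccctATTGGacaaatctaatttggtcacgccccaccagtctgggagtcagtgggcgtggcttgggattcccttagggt
Cox7a2: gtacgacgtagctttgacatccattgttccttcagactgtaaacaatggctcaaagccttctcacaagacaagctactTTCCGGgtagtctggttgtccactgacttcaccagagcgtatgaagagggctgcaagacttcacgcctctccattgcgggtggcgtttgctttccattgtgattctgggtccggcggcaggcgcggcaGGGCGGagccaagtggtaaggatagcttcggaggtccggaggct

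Both strands were searched. The Cox7a1 window held 2 matches to the CCAAT box (present in 33.8% of all windows of that length) and 0 to the GC box GGGCGG or to the ETS core TTCCGG. The Cox7a2 window held 1 match to GGGCGG (32.7% of all windows), 1 to TTCCGG (12.0% of all windows) and 0 to CCAAT. Each window held 1 match to the E-box CANNTG (66.2% of all windows) and 0 to TATAAA (12.4% of all windows). None of these matches overlapped a match to another motif. The Cox7a1 window had 4 CpG dinucleotides and the Cox7a2 window 14, against a median of 6 over all windows. Both lay between the quartiles of all windows, 2 and 16. A match to these letters is a description of the sequence and not a measured site.

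Cox7a2l encodes a COX7A-related protein that joins cytochrome c oxidase to complex III in respiratory supercomplexes. Its brighter probe set, 10399677, was at 9.54, 9.30 and 9.39 in FLAG-SMN IP and at 9.13 and 8.86 in control IP. The groups did not overlap, but the difference was 0.41 (SE 0.19; limma adjusted p = 0.531). The ID of that probe set lies among IDs of genes on chromosome 12, whereas RefSeq places Cox7a2l on chromosome 17, and whether it reads a copy of the gene elsewhere was not tested.

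The second Cox7a2l probe set, 10453254, has an ID among genes of chromosome 17. Its signal was 9.57, 8.0 and 8.32 in FLAG-SMN IP and at 7.94 and 7.76 in control IP. FLAG-SMN IP replicate 1 was far above all other arrays, and replicate 2 was close to control IP replicate 1. The difference was 0.78 (SE 0.45; limma adjusted p = 0.654). Leaving out FLAG-SMN IP replicate 1 gave 0.31. Cox7a2l minus Cox7a2 changed between the groups by 0.15 with the brighter probe set (exact permutation test, 2-sided, p = 0.90) and by 0.51 with the other (exact permutation test, 2-sided, p = 0.90). With the brighter probe set, the change was -0.09 without FLAG-SMN IP replicate 1.

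**Figure D2:**
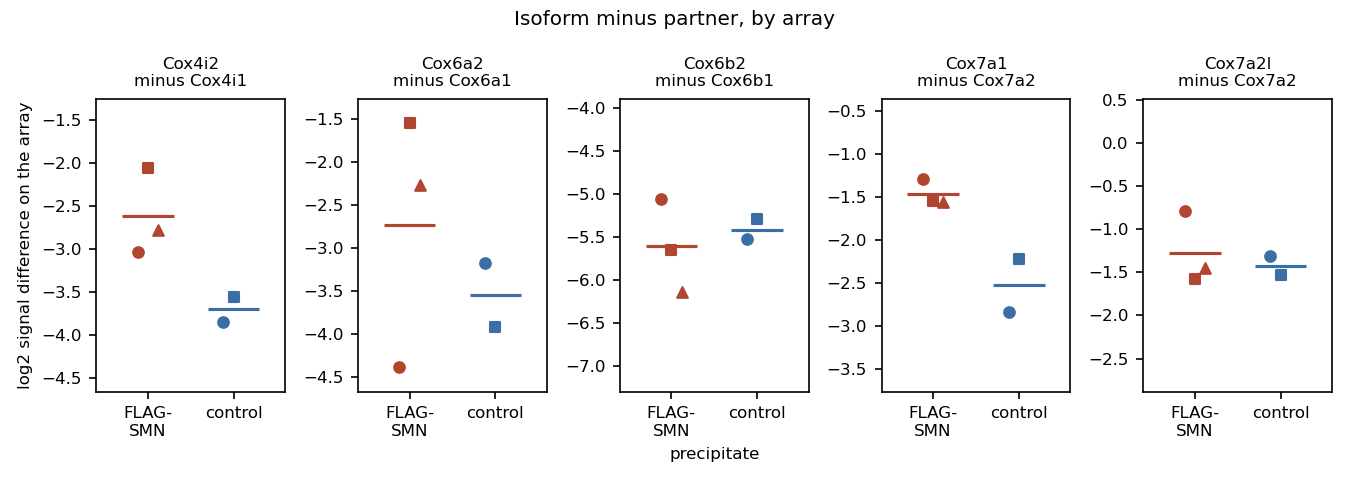
Log2 signal of an isoform minus that of its partner on each array (vertical axis, the same span in every panel) for FLAG-SMN IP and control IP (horizontal axis); points are arrays, with circles, squares and triangles for replicates 1, 2 and 3, and bars are group means. The groups are apart for Cox4i2 minus Cox4i1 and Cox7a1 minus Cox7a2 and overlap in the other 3 panels.

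Cox6a2, the other muscle form, was the most variable member. Its signal was 6.67, 9.76 and 8.79 in FLAG-SMN IP and at 8.40 and 7.03 in control IP. FLAG-SMN IP replicate 1 was the lowest of the 5 arrays and replicate 2 the highest, so the control values fell inside the FLAG-SMN range. The difference was 0.69 (SE 0.87; limma adjusted p = 0.917), and its 95% confidence interval, from -1.38 to 2.76, includes the differences of Cox4i2 and Cox7a1. It was 1.56 without FLAG-SMN IP replicate 1 (limma adjusted p = 0.206), 0.02 without FLAG-SMN IP replicate 2 and 0.0037 without control IP replicate 2.

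Its partner Cox6a1 was at 11.05, 11.30 and 11.06 in FLAG-SMN IP and at 11.57 and 10.94 in control IP. Control IP replicates 1 and 2 were the highest and the lowest of the 5 arrays. The difference was -0.12 (SE 0.24; limma adjusted p = 0.965). It was 0.20 without control IP replicate 1 and -0.07 without FLAG-SMN IP replicate 1. Cox6a2 minus Cox6a1 changed by 0.81 (exact permutation test, 2-sided, p = 0.50). The change ranged with the array left out, from 0.22 without FLAG-SMN IP replicate 2 and 0.44 without control IP replicate 2 to 1.63 without FLAG-SMN IP replicate 1.

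The COX6B isoforms, which sit on the outer face of the enzyme near the cytochrome c site, both had lower values in FLAG-SMN IP. Cox6b1, the common form, was at 10.37, 10.92 and 10.74 in FLAG-SMN IP and at 11.18 and 11.13 in control IP. Cox6b2, the testis form, was at 5.31, 5.27 and 4.60 in FLAG-SMN IP and at 5.65 and 5.83 in control IP. For each of them all 3 FLAG-SMN arrays lay below both control arrays.

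The difference of Cox6b1 was -0.48 (SE 0.22; limma adjusted p = 0.527) and that of Cox6b2 -0.68 (SE 0.26; limma adjusted p = 0.432). Leaving out the first FLAG-SMN array, they were -0.32 and -0.80. Cox6b2 was the dimmest member, little above the presumed control medians, so the size of its difference is uncertain and no fold is given. Unlike the COX4 and COX7A pairs, the COX6B ratio kept the groups overlapping: Cox6b2 minus Cox6b1 changed by -0.20 (exact permutation test, 2-sided, p = 0.70), by -0.48 without FLAG-SMN IP replicate 1 and by 0.06 without FLAG-SMN IP replicate 3. In all, 5 such pairs were compared, and 2 of them gave the smallest p that the permutation test allows with 5 arrays. With 10 equally likely arrangements of the arrays, each pair has a probability of 0.10 of giving that p. The Cox7a1 and Cox7a2l pairs share Cox7a2 and are not independent. Among all single probe sets the groups were apart for 12.1% with FLAG-SMN IP above and for 13.2% with it below.

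Cox8a encodes the widely expressed form of the smallest nuclear subunit. It was the brightest member, at 11.04, 12.38 and 11.95 in FLAG-SMN IP and 12.40 and 12.06 in control IP. FLAG-SMN IP replicate 1 was the lowest array and replicate 2 lay between the control arrays. The difference was -0.44 (SE 0.39; limma adjusted p = 0.846). Leaving out FLAG-SMN IP replicate 1 gave -0.06. Its muscle counterpart Cox8b was at 4.97, 5.04 and 5.24 in FLAG-SMN IP and at 6.44 and 5.72 in control IP. All FLAG-SMN arrays of Cox8b lay below both control arrays, the reverse of Cox7a1, with a difference of -1.0 (SE 0.25; limma adjusted p = 0.238). It was -0.94 without FLAG-SMN IP replicate 1 and -0.63 without control IP replicate 1. Cox8b is about as dim as Cox6b2, so the size of its difference is likewise uncertain.

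**Figure D3:**
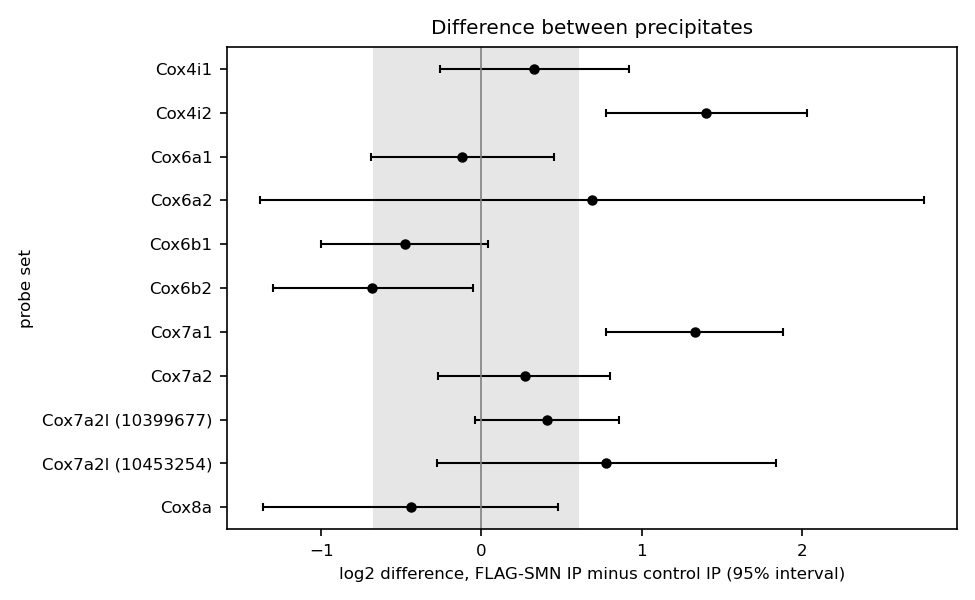
Log2 difference between FLAG-SMN IP and control IP (horizontal axis) for each of the 11 probe sets (vertical axis), with 95% confidence intervals from the moderated fit; the grey band spans the 5th to 95th percentile of all tested probe sets, -0.67 to 0.60. The intervals of Cox4i2 (0.78 to 2.03) and Cox7a1 (0.78 to 1.88) lie above that band, and that of Cox6a2 is the widest.

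The heart, muscle, testis and vascular tissues in which these isoforms are known were examined through their marker genes. Striated muscle markers averaged 5.14 to 5.19 per array in FLAG-SMN IP and 4.89 to 5.41 in control IP over 8 genes, with 0 of 8 at a limma unadjusted p under 0.05. The muscle creatine kinase Ckm was at 5.38, 5.87 and 5.44 in FLAG-SMN IP and at 5.83 and 5.24 in control IP. The brightest of the 8, Tnnt2, was at 6.41, 6.98 and 6.95 in FLAG-SMN IP and at 6.88 and 6.49 in control IP. The groups were apart for 0 of the 8 markers. Over all probe sets they were apart for 12.1% with FLAG-SMN IP above and for 13.2% with it below.

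Pericyte and smooth muscle markers, which belong to cells where Cox4i2 is known to be high, averaged 4.81 to 4.88 in FLAG-SMN IP and 4.74 to 4.93 in control IP over 8 genes. Among them, 0 were higher and 1 was lower at a limma unadjusted p under 0.05, against 4.14% and 6.31% of all probe sets. The lower one was Pdgfrb, a growth factor receptor (difference -0.66, limma adjusted p = 0.307). The median difference of the list was 0.05, with 5 of 8 positive. Abcc9, a potassium channel regulator, gave 0.38 (limma adjusted p = 0.573), from signals of 4.02 to 4.68, also close to the presumed control medians. Its groups did not overlap, with FLAG-SMN IP above, as for 12.1% of all probe sets. The receptor gene Notch3 gave 0.25 (limma adjusted p = 0.857), at 5.82 to 6.40 over the 5 arrays. Kcnj8 and Acta2, a potassium channel and the smooth muscle actin, had signals of 4.29 to 4.70 and 4.02 to 4.36, close to the presumed control medians. Male germ cell markers averaged 3.59 to 3.88 in FLAG-SMN IP and 3.48 to 3.77 in control IP over 7 genes, with 0 of 7 at a limma unadjusted p under 0.05. Fibroblast markers (5 genes) and glia markers (4 measured) also had 0 at that level, with medians of 0.11 and -0.01. The neuron list had a median difference of -0.33, with 7 of 8 negative. Its marker Gap43 was at 10.70, 7.38 and 7.47 in FLAG-SMN IP and at 9.18 and 8.46 in control IP. Of the 8 neuron markers, 0 were higher and 2 lower at a limma unadjusted p under 0.05, against 4.14% and 6.31% of all probe sets. Among the 2 was Snap25, a synaptic fusion protein gene (difference -2.14, limma adjusted p = 0.131). Snap25 passed with FLAG-SMN IP replicate 1 left out (-2.49, limma adjusted p = 0.00741), where 350 probe sets passed over the series. The part of these cell type markers in the results was not tested beyond these values.

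The remaining nuclear subunits showed no common direction. Of 9 listed, 8 had a probe set of their own, with 4 positive and 4 negative differences and a median of 0.01. At a limma unadjusted p under 0.05, 0 were higher (4.14% of all probe sets) and 1 was lower (Cox8b; 6.31% of all probe sets). Cox6c, an abundant single-form subunit, had the next smallest p, with a difference of -0.44 (limma adjusted p = 0.543) and all FLAG-SMN arrays below both control arrays. Its brighter probe set has an ID among genes of chromosome 12 while the gene is on chromosome 15, and its probe set among genes of chromosome 15 gave -0.36. The catalytic core was represented by COX2, the mitochondrial gene for the copper-binding subunit. COX2 was at 12.76, 12.64 and 12.62 in FLAG-SMN IP and at 12.41 and 12.34 in control IP, a small difference of 0.30 (SE 0.17; limma adjusted p = 0.659) with the groups apart.

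Genes that assemble the enzyme likewise went both ways, with 11 positive and 11 negative differences among 22 measured and a median of 0.01. At a limma unadjusted p under 0.05, 4 were higher (4.14% of all probe sets) and 2 lower (6.31% of all probe sets). With probe sets among genes of the own chromosome only, 3 were higher and 2 lower. Of the 22, 0 passed the adjusted threshold. Higd1a, a hypoxia-inducible protein that binds the enzyme, had the smallest p. Its signal was 7.70, 6.95 and 6.84 in FLAG-SMN IP and at 6.01 and 5.79 in control IP, with a difference of 1.26 (SE 0.29; limma adjusted p = 0.209; 0.99 with the first FLAG-SMN array left out). That probe set has an ID among genes of chromosome 3, while the gene is on chromosome 9. The Higd1a probe set among genes of chromosome 9 gave only 0.31 (limma adjusted p = 0.773), with the groups overlapping.

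Next by p was Cox19, a copper-handling factor, with a difference of -0.57 (limma adjusted p = 0.374). Cox18, needed to insert the COX2 protein into the inner membrane, followed with -0.79 (limma adjusted p = 0.374). In the other direction, Cmc1 gave 0.53 (limma adjusted p = 0.374) and Surf1 gave 0.58 (limma adjusted p = 0.461). Cox17, the copper chaperone, had the largest difference, 1.58 (limma adjusted p = 0.472). Its signal was 10.44, 7.96 and 8.68 in FLAG-SMN IP and 7.35 and 7.54 in control IP. The first FLAG-SMN array was far above the rest, and the difference was 0.87 with that array left out; Cox17 was singled out after its values were seen.

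**Figure D4:**
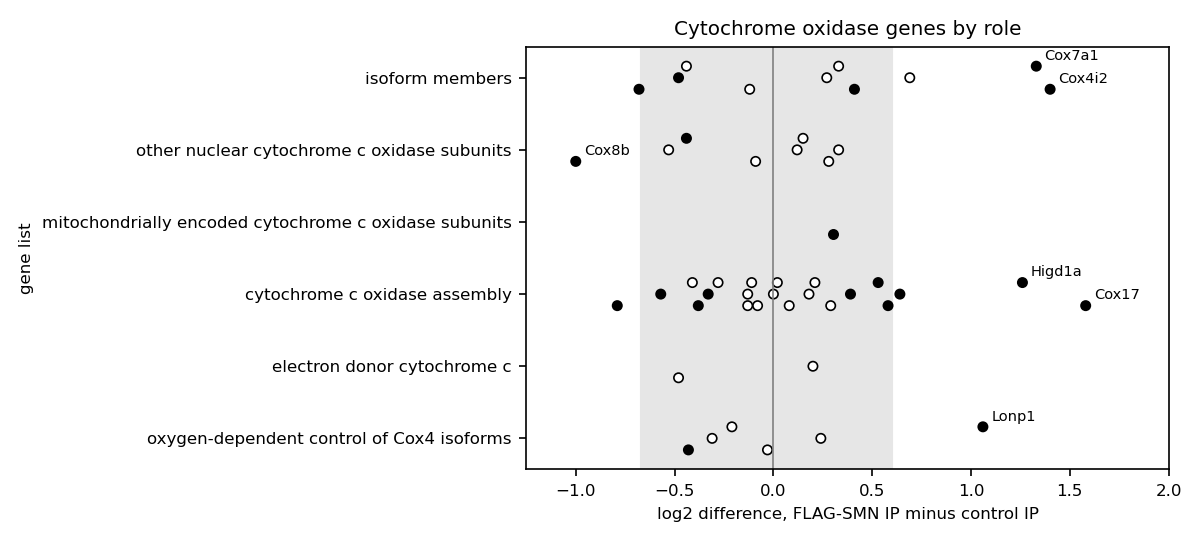
Log2 difference between FLAG-SMN IP and control IP (horizontal axis) of each gene, at its brightest probe set, in 6 lists of genes (vertical axis); filled points mark genes whose groups do not overlap, genes at 0.99 or beyond in either direction are named, and the grey band spans the 5th to 95th percentile of all probe sets. Cox4i2 and Cox7a1 stand to the right of the other isoform genes, while the other nuclear subunits and the assembly genes have medians of 0.01.

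The genes known to act on the choice between the COX4 isoforms, or on their turnover, went both ways, with 2 positive and 4 negative differences. Of 7 listed, 6 had a probe set of their own, with a median of -0.12 (0.0089 without FLAG-SMN IP replicate 1). At a limma unadjusted p under 0.05, 1 was higher (4.14% of all probe sets) and 1 lower (6.31% of all probe sets). Lonp1, the mitochondrial protease known to degrade the COX4I1 protein, was at 10.55, 9.64 and 10.03 in FLAG-SMN IP and at 9.23 and 8.79 in control IP. All FLAG-SMN arrays of Lonp1 lay above both control arrays, with a difference of 1.06 (SE 0.30; limma adjusted p = 0.278; 0.83 with the first FLAG-SMN array left out). Epas1, a hypoxia-inducible transcription factor, gave -0.43 (limma adjusted p = 0.462).

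Hif1a, the other oxygen-regulated factor, gave -0.03 (limma adjusted p = 0.999), and 0.44 when the first FLAG-SMN array was left out. Its signal was 8.79 in the first FLAG-SMN replicate, below 10.24 and 10.13 in replicates 2 and 3. Chchd2, a factor that acts at the Cox4i2 promoter, has no probe set of its own. Cytochrome c itself, Cycs, had a difference of -0.48 (limma adjusted p = 0.850; -0.03 with the first FLAG-SMN array left out). That probe set has an ID among genes of chromosome 5, while Cycs is on chromosome 6. The Cycs probe set among genes of chromosome 6 was dim, at 4.55, 3.54 and 4.04 in FLAG-SMN IP and 5.03 and 4.97 in control IP, and gave -0.96 (limma adjusted p = 0.318) with the groups apart. The testis form Cyct gave 0.20 (limma adjusted p = 0.931) from signals below the presumed control medians on every array.

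The genes whose pattern over the 5 arrays was most like that of Cox4i2 were ranked by root-mean-square distance between mean-centred log2 values, among 11709 brighter probe sets with 1 gene symbol. The closest was 2610528A11Rik, at a distance of 0.168, followed by the ribosomal protein genes Rps21 (0.173) and Rpl10a (0.197), then Csrp2 (0.219), a LIM-domain protein gene, and Rpl27a (0.242). The median distance over all ranked probe sets was 0.813. Among the members, Cox7a1 was closest to Cox4i2, at 0.347. The IDs of the 3 ribosomal protein probe sets lie among genes of chromosomes other than the genes' own, and whether they read copies of those genes elsewhere was not tested.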

How the data were processed

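RNA from 5 precipitates was measured, and the authors deposited log2 values after RMA, per the submitters' processing notes, with settings not given in the sources used here. A range from 1.28 to 14.15 set the scale as log2. RMA quantile-normalizes the arrays, so a general difference in recovered RNA is not visible. Groups came from sample titles. Of 34760 probe sets, 6573 with IDs below the lowest annotated ID were treated as presumed controls and not tested. limma 3.58.1 in R 4.3.3 compared the groups (lmFit and eBayes, 2-sided, no block; 3 residual and 3.8 prior degrees of freedom), with Benjamini-Hochberg adjustment over 28187 probe sets. The fit was checked on simulated data. The brightest probe set stood for a gene. COX2 is the annotation's name for the gene listed as mt-Co2. Of 19855 genes, 19555 had their brightest probe set ID among IDs of genes of their own chromosome, which was the basis for naming those that did not. The chromosome of an ID's surroundings was the most frequent one among the 20 nearest annotated IDs. The named genes were all members, the 2 genes of smallest p in each other cytochrome oxidase list and a few fixed genes. The 5 nearest to Cox4i2 in pattern were added. Cox18, Cmc1 and Surf1, and marker genes of cell types as examples, were named after their values were seen. Members and lists were chosen with earlier results of these data known. Alternatives were cyclic loess scaling, another centring, a brightness filter, all probe sets, trend and robust moderation, array weights, a replicate block, each array left out, and other probe sets of a gene. Promoters matched 7 of the 10 members. Figures used matplotlib 3.10.9 in Python 3.11.15. Only 5 arrays limit the precision.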

Additional observations from a re-analysis of the deposited data

How the results depend on the processing

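Over all probe sets, 9 passed the threshold; the count was 0 with cyclic loess scaling, with all probe sets of the table and with the replicate block, 41 with centring on brighter probe sets, 86 with array weights and 54 with each gene averaged over its probe sets, an alternative chosen after seeing the data. With single arrays left out it ranged from 0 to 350, the latter without FLAG-SMN IP replicate 1. Of the 11 isoform probe sets, 0 passed in limma, also with trend and robust moderation, and 3 had an unadjusted p under 0.05; leaving out single arrays gave 0 to 2, the 2 being Cox4i2 and Cox7a1 without FLAG-SMN IP replicate 1. With single arrays left out, Cox4i1 ranged from -0.0047 to 0.66 and Cox6a1 from -0.43 to 0.20. Cox6b2 minus Cox6b1 was 0.06 with the replicate block and ranged from -0.48 to 0.06 with single arrays left out. Cox7a2l minus Cox7a2 ranged from -0.09 to 0.30. The list median of the isoforms ranged from -5e-04 to 0.42. The median of the other nuclear subunits was -0.02 with cyclic loess scaling and -0.13 to 0.11 with single arrays left out, and that of assembly genes -0.07 to 0.11. The median of the cytochrome c genes ranged from -0.41 to 0.18 and that of the COX4 control list from -0.19 to 0.0089, each highest without FLAG-SMN IP replicate 1. The causes were not tested. Replicate numbers 1 and 2 are shared by the groups, but the labels do not state that they pair arrays, so the main fit had no block. The deviations of same-numbered arrays correlated at 0.13 and -0.202. With only 2 control arrays, these values cannot settle whether arrays are paired. The replicate block gave 1.49 for Cox4i2 (limma adjusted p = 0.245) and 1.30 for Cox7a1 (limma adjusted p = 0.219).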

Other observations

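The genes next to Cox4i2 on its chromosome, by RefSeq order of protein-coding genes, were read after the values of Cox4i2 had been seen. Id1, an inhibitor of basic helix-loop-helix transcription factors and the nearest gene on one side, had a log2 difference of 1.08 (limma adjusted p = 0.229), and its groups did not overlap, FLAG-SMN IP being higher. Bcl2l1, the anti-apoptotic gene nearest on the other side, gave 0.56 (limma adjusted p = 0.358), also with the groups apart. The next genes outward gave 0.69 for Mcts2 (limma adjusted p = 0.564) and 0.57 for Tpx2 (limma adjusted p = 0.805, groups overlapping), and those beyond gave -0.70 for H13 (limma adjusted p = 0.240) and -0.14 for Mylk2 (limma adjusted p = 0.919). Around Cox7a1 the nearest genes went the other way, with -0.76 for Zfp146 (limma adjusted p = 0.286) and -0.78 for Capns1 (limma adjusted p = 0.501). Whether position has a part in any of these differences was not tested.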
